A study of Mus musculus with 4 samples.

Results

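The 9 genes described here are known as markers of reserve or injury-revival stem cells of the intestine, and all 9 were found by Ensembl identifier among the 53845 rows of the count table. The 6 reserve genes were Bmi1, Hopx, Tert, Sox9, Msi1 and Mex3a, and the 3 revival genes were Clu, Ly6a and Anxa1. They were listed by name, with earlier results of these data known. RNA was sequenced from small intestinal crypts of C57BL/6 mice without injury, with 2 libraries from wild-type (WT) mice and 2 from Vil-CREPTKO mice. Vil-CREPTKO mice carry villin-Cre together with floxed alleles of the gene for CREPT (Rprd1b), a protein that binds RNA polymerase II. Villin-Cre is active throughout the intestinal epithelium from development on, so the deletion was neither limited to stem cells nor timed, and blood, immune and connective tissue cells kept the gene. The study used male and female mice of 6 to 8 weeks. The labels do not say which animals gave a library, and p-values measure the spread between these libraries only.

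In the crypt, fast-cycling crypt base columnar cells marked by Lgr5 keep the epithelium renewed. Reserve stem cells are rarer or slower cells, many of them committed secretory precursors, that can return to the stem cell state when the columnar cells are lost. After radiation or inflammation the epithelium can also pass through a fetal-like state, driven by the coactivator YAP, in which Clu marks revival stem cells and Ly6a (the surface protein Sca-1) and Anxa1 are raised. Most reserve markers are also made by ordinary crypt cells, so their RNA in whole crypts is not a count of reserve cells. In bulk RNA, fewer cells of a type and less RNA per cell cannot be told apart.

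The sequences below show which stretch of a transcript or promoter stands behind a marker name. The study lists quantitative PCR primers for Bmi1, Hopx and Sox9, which are shown because they fix the part of each gene that such a measurement reads. The Bmi1 pair lies in the coding sequence of exons 2 and 3 of 10 (GRCm38 chr2:18681849-18681870 and chr2:18682243-18682263, plus strand) and matched all 7 annotated transcripts. The Hopx forward primer crosses the junction of exons 2 and 3 in the coding sequence, its reverse primer lies in the 3′ UTR (chr5:77087659-77087679, minus strand), and both matched all 3 transcripts. The Sox9 pair lies in the 3′ UTR in exon 3 of 3 (chr11:112785786-112785806 and chr11:112785857-112785877, plus strand).
Bmi1 forward: atccccacttaatgtgtgtcct
Bmi1 reverse: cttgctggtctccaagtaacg
Hopx forward: aggagcagacgcagaaatg
Hopx reverse: gaaacatcaaaacagcctggg
Sox9 forward: gccagatggacccaccagtat
Sox9 reverse: tccaaacaggcagggagattc

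Promoter sequences came from RefSeq (GRCm38.p6), where 5 of the 9 genes had an entry, with 6 windows of 250 bases before a start site. Hopx is shown because it has 2 start sites whose reads were summed into a single gene count, so a switch between them would not be seen in these data. Its first window is chr5:77115124-77115373 and its second is chr5:77095268-77095517, both on the minus strand.
Hopx first start: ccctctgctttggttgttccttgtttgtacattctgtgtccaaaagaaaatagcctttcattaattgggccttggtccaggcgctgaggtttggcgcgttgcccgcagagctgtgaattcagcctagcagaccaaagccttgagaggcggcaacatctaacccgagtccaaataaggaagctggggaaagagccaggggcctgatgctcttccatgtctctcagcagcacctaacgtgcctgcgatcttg
Hopx second start: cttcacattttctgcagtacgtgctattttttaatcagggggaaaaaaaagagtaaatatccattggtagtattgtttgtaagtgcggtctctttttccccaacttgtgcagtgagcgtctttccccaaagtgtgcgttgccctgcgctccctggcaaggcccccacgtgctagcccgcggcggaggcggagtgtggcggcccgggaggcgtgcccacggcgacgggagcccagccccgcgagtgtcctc

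TEAD factors are the DNA-binding partners of YAP, and TCF/LEF factors are those of β-catenin. The TEAD motif GGAATG, searched on both strands, was found in 2 of the 6 windows, against 12.6% of all 32851 promoter windows of that length. The TCF/LEF motif CTTTGAT was found in none of the 6 windows and in 3.21% of all windows. The matches stood 228 bases before the Bmi1 start (chr2:18676770-18676815, plus strand) and 236 bases before the Anxa1 start (chr19:20390882-20390921, minus strand), with the motif in capitals below. These matches describe letters and are not evidence of binding.
Bmi1 stretch: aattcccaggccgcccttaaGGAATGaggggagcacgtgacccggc
Anxa1 stretch: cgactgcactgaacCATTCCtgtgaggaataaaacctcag

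The libraries held 47241049 to 49369315 counts each, and 17504 genes, all 9 members included, passed the filter on low counts. Expression is given as CPM, counts scaled to library size with TMM factors, and as mean ± SD over 2 libraries. Differences are log2 fold changes of Vil-CREPTKO over WT with their SE and adjusted p from edgeR's quasi-likelihood test over all genes tested. Rprd1b fell by 1.14 on the log2 scale (SE 0.12, adjusted p = 0.0041), from 60.5 and 61.6 CPM in WT to 26.3 and 29.0 CPM in Vil-CREPTKO. WT replicate 2 held Xist at 863 CPM and no count of the Y-linked genes, unlike the 3 other libraries, so sex varied within WT but not within Vil-CREPTKO. Mitochondrial genes took 10.2% of the counts in Vil-CREPTKO replicate 1 and 6.75% to 7.62% in the others. The epithelial markers Epcam, Cdh1, Vil1, Cdx2, Krt8 and Krt20 summed to 7148 and 8409 CPM in the WT libraries and 8534 and 7408 CPM in those of Vil-CREPTKO.

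No member differed between WT and Vil-CREPTKO at an adjusted p under 0.05, where 2.71% of all genes tested did (2.29% lower and 0.423% higher). At an unadjusted p under 0.05, 3 of the 9 members differed (Clu, Sox9 and Tert), as did 14.3% of all genes. With a log2 fold change beyond 1 required as well, 1.34% of genes were called lower and 0.297% higher, and no member was among them. Both Vil-CREPTKO libraries lay below both WT libraries for Sox9 and Mex3a (24.2% of all genes) and above them for Tert and Clu (21% of all genes), and the groups overlapped for the other 5. The median log2 fold change was -0.14 over the 6 reserve genes and 0.36 over the 3 revival genes, beside -0.006 over all genes tested. The revival median was -0.59 without Vil-CREPTKO replicate 1, 1.30 without replicate 2 and 0.02 with the replicate number as a block.

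**Figure D1:**
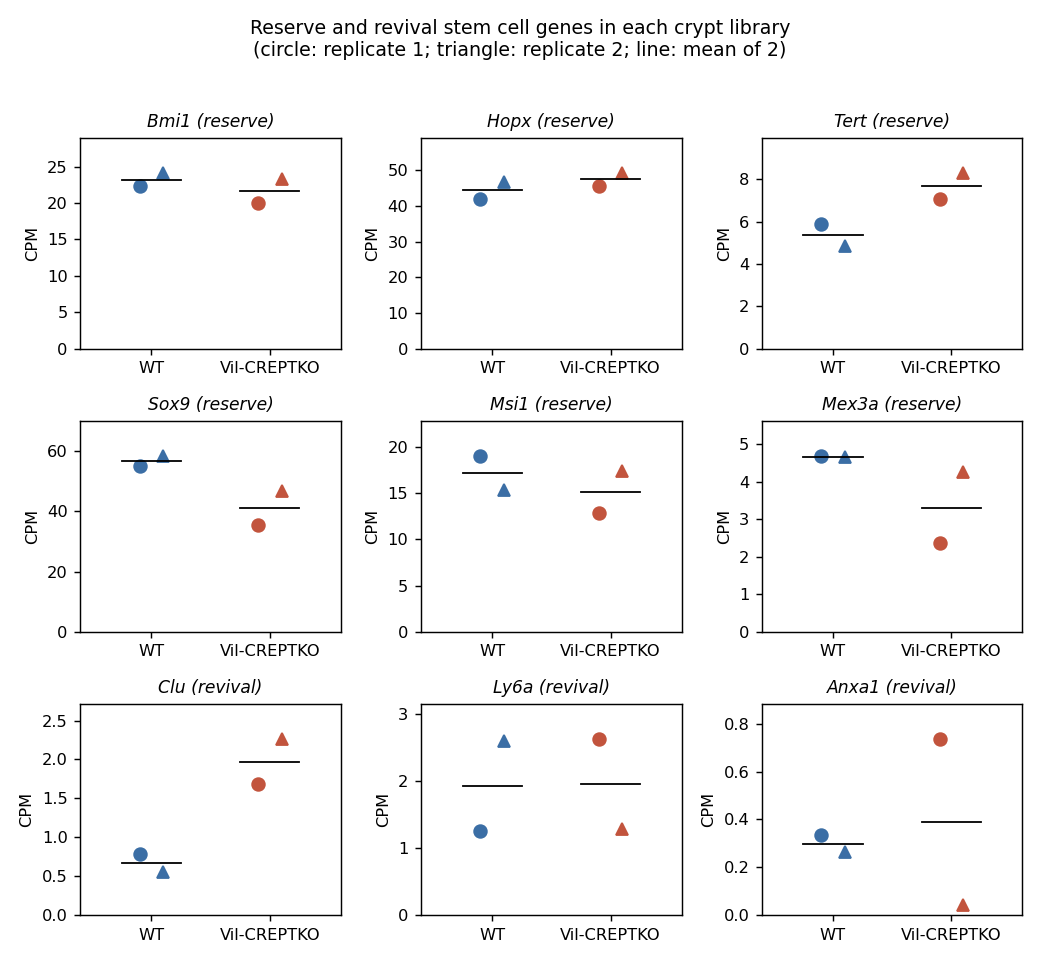
CPM of the 9 member genes in the 4 libraries, each panel with its own linear axis from 0. Blue points are WT, red points are Vil-CREPTKO, circles are replicate 1, triangles are replicate 2 and lines are means of 2. The groups stand apart for Tert, Sox9, Mex3a and Clu, and the 2 Vil-CREPTKO points of Anxa1 lie at 0.736 and 0.0407 CPM, either side of WT.

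Levels of different genes were compared per length, as TPM over the combined exon length of all annotated transcripts of a gene. This length exceeded the longest transcript for Clu (3437 against 1810 bases) but not for Mex3a (5778 bases for both). The place of Clu beside Mex3a therefore depends on the length chosen. In WT the order was Hopx (71.8 TPM), Sox9 (33.7 TPM), Bmi1 (14.4 TPM), Msi1 (7.30 TPM), Ly6a (3.88 TPM), Tert (2.32 TPM), Mex3a (1.99 TPM), Clu (0.481 TPM) and Anxa1 (0.254 TPM). Among neighbours in that order, only Tert and Mex3a had overlapping TPM values in the WT libraries. On this scale the order of the means was the same in Vil-CREPTKO, from Hopx at 68.0 TPM to Anxa1 at 0.269 TPM. Clu (1.26 TPM) had come close to Mex3a (1.27 TPM) there, with overlapping libraries. Each revival gene was less abundant per length than Hopx, Sox9, Bmi1 and Msi1 in every library.

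Bmi1 encodes a Polycomb protein of the complex PRC1, which keeps genes such as the cell cycle inhibitor locus Cdkn2a silent. It is at GRCm38 chr2:18677018-18686629 on the plus strand. Bmi1 stood at 22.3 and 24.1 CPM in the WT libraries and 20.04 and 23.3 CPM in those of Vil-CREPTKO. The groups overlapped, and the log2 fold change was -0.10 (SE 0.15, adjusted p = 0.838). Its 95% interval ran from 0.740 to 1.18 fold.

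Of 17 PRC1 partners and targets, 16 were tested and none passed an adjusted p of 0.05. Their median log2 fold change was -0.11. The lowest was Pcgf1, a paralogue of Bmi1 that serves in a variant PRC1, at 8.15 and 8.57 CPM in the WT libraries and 5.80 and 4.70 CPM in those of Vil-CREPTKO (fitted log2 fold change -0.67, SE 0.21, adjusted p = 0.161). Ring1, a core ubiquitin ligase of PRC1 named after its values were seen, had the smallest p of the list, at 31.1 and 26.0 CPM in the WT libraries and 18.8 and 18.4 CPM in those of Vil-CREPTKO (fitted log2 fold change -0.62, SE 0.15, adjusted p = 0.0735). Its adjusted p was 0.0314 with DESeq2 and 0.0111 with no filter on low counts, and 0.0557 to 0.264 in the 10 other alternatives. The highest was Cbx8, a subunit that reads methylated histone H3, at 0.29 (SE 0.22, adjusted p = 0.644). Cdkn2a was too low to test, with 8 and 8 counts in the WT libraries and 10 and 5 counts in those of Vil-CREPTKO. Its neighbour Cdkn2b, the most abundant of the list per length in WT (104 TPM), had a log2 fold change of -0.08 (SE 0.14, adjusted p = 0.875).

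Hopx encodes a small homeodomain protein that does not bind DNA, and it lies on the minus strand at chr5:77086988-77115121. Hopx stood at 41.9 and 46.7 CPM in the WT libraries and 45.6 and 49.1 CPM in those of Vil-CREPTKO. The groups overlapped, with a log2 fold change of 0.10 (SE 0.12, adjusted p = 0.796) and a 95% interval of 0.881 to 1.30 fold. The antisense gene Hopxos shares 412 exonic bases with it and had 30 to 61 counts, against 1984 to 2412 counts for Hopx. Since the strand setting of the counting was not stated, reads from their shared stretch cannot be told apart.

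Tert encodes the reverse transcriptase of telomerase, which lengthens chromosome ends (chr13:73626911-73649843, plus strand). Tert stood at 5.88 and 4.86 CPM in the WT libraries and 7.09 and 8.29 CPM in those of Vil-CREPTKO, from 239 to 407 counts. In CPM the Vil-CREPTKO libraries were both above WT, and Vil-CREPTKO averaged 143% of WT. The fitted log2 difference was 0.52 (SE 0.21), with an unadjusted p of 0.0397 and an adjusted p of 0.313. On the TPM scale, which has no TMM scaling, the groups overlapped, with 2.63 and 2.00 for the WT libraries against 2.47 and 3.39 for Vil-CREPTKO.

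Of 13 genes for other telomerase subunits and for shelterin, the complex that caps chromosome ends, 12 were tested and 1 passed, Tinf2. Tinf2 encodes the shelterin subunit that links the proteins bound to double-stranded and single-stranded telomere DNA. Tinf2 stood at 29.4 and 30.3 CPM in the WT libraries and 12.0 and 14.1 CPM in those of Vil-CREPTKO, with a fitted log2 fold change of -1.19 (SE 0.15, adjusted p = 0.00618). Both Vil-CREPTKO libraries were less than 50% of either WT library. The adjusted p stayed under 0.05 in all 12 alternative analyses, 0.00938 at the highest. The median of the 12 genes was 0.05, and Nhp2, a subunit of the telomerase particle and the most abundant of the list per length, had a log2 fold change of -0.10 (SE 0.11, adjusted p = 0.760). Terc, the telomerase RNA, had 0 to 8 counts and was not tested.

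Sox9 encodes a transcription factor of crypt base, Paneth and other secretory cells, at chr11:112782224-112787760 on the plus strand. Sox9 stood at 55.0 and 58.4 CPM in the WT libraries and 35.7 and 46.7 CPM in those of Vil-CREPTKO. Both Vil-CREPTKO libraries were below both WT libraries, with a mean of 56.7 ± 2.38 CPM in WT and 41.2 ± 7.80 CPM in Vil-CREPTKO (n = 2 each). Vil-CREPTKO was at 72.6% of the WT mean. The fitted log2 difference was -0.46 (SE 0.15), with an unadjusted p of 0.0136 and an adjusted p of 0.181. The value hung on Vil-CREPTKO replicate 1: without it the log2 fold change was -0.28 (adjusted p = 0.490), while without replicate 2 it was -0.66 (adjusted p = 0.0278). With no filter on low counts the adjusted p was 0.0467.

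Markers of 2 Sox9-positive lineages were set beside these values. All 6 tuft cell markers were lower in both Vil-CREPTKO libraries than in both WT libraries, and 3 of them (Trpm5, Avil and Sh2d6) passed the test. Their summed level was 152 and 172 CPM in the WT libraries and 77.3 and 69.7 CPM in those of Vil-CREPTKO, and none was at 0. The 7 Paneth cell markers, of which none passed, summed to 12415 and 17250 CPM in the WT libraries and 15647 and 17285 CPM in those of Vil-CREPTKO. Defa24 was the largest part of these sums, and the markers went both ways, with 5 positive and 2 negative log2 fold changes. They ran from -0.62 for Ang4 (SE 0.30, adjusted p = 0.402) to 0.55 for Pla2g2a (SE 0.13, adjusted p = 0.0661). The part of either lineage in the Sox9 difference was not tested.

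Msi1 and Mex3a encode RNA-binding proteins. Msi1 (Musashi-1; chr5:115429599-115455698, plus strand) represses translation of targets that include Numb, an inhibitor of Notch. Msi1 stood at 19.0 and 15.3 CPM in the WT libraries and 12.8 and 17.4 CPM in those of Vil-CREPTKO, so the groups overlapped (log2 fold change -0.18, SE 0.20, adjusted p = 0.756). Mex3a, which marks a slowly cycling subset of Lgr5-positive cells, lies at chr3:88532395-88541396 on the plus strand.

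Mex3a stood at 4.68 and 4.65 CPM in the WT libraries and 2.37 and 4.26 CPM in those of Vil-CREPTKO. Both Vil-CREPTKO libraries were below WT, but replicate 2 by 0.13 and replicate 1 by 0.96 on the log2 scale. The fit gave a log2 fold change of -0.49 (SE 0.31, adjusted p = 0.550), with a 95% interval of 0.435 to 1.16 fold. Of 7 relatives and targets of Msi1, Mex3a and Sox9, 5 were tested and none passed. Their log2 fold changes ran from -0.40 for Mex3b (SE 0.36, adjusted p = 0.693) to 0.02 for Numb (SE 0.13, adjusted p = 0.972), which was also the most abundant per length in WT (70.1 TPM).

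The 6 reserve genes shared a difference between the Vil-CREPTKO libraries. All 6 were higher in replicate 2 than in replicate 1, as were 50.1% of all genes tested, and 4 of the 6 had their lowest value of all libraries in replicate 1 (28.7% of all genes). Over the 6 genes the median log2 difference from the WT mean was -0.31 in replicate 1 and 0.02 in replicate 2. Without Vil-CREPTKO replicate 1, Bmi1 and Msi1 changed sign, to log2 fold changes of 0.005 and 0.02, and the median over the 6 genes went from -0.14 to 0.01.

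The same order was found for the 9 crypt base columnar cell genes. All 9 were higher in Vil-CREPTKO replicate 2 than in replicate 1, and 8 of 9 were lowest in replicate 1. None of the 9 passed the test, with log2 fold changes from -0.38 for Lgr5 (SE 0.22, adjusted p = 0.501) to 0.05 for Znrf3 (SE 0.19, adjusted p = 0.950). Lgr5, the receptor for R-spondins, stood at 18.7 and 18.2 CPM in the WT libraries and 10.95 and 17.5 CPM in those of Vil-CREPTKO. Olfm4, the most abundant of them per length, stood at 1721 and 1338 CPM in the WT libraries and 1127 and 1614 CPM in those of Vil-CREPTKO. The summed markers of enterocytes, absorptive cells that fill the villi, had the opposite order in Vil-CREPTKO, at 17516 CPM in replicate 1 and 10682 CPM in replicate 2. The WT libraries were at 9917 and 13304 CPM. Each of the 6 markers was higher in replicate 1 of Vil-CREPTKO than in replicate 2. In replicate 1, Alpi, Apoa1, Fabp1 and Sis were above both WT libraries, while Apoa4 and Lct lay within the WT range. Their log2 fold changes were positive for 4 and negative for 2. No enterocyte marker was at 0, and none of the 6 passed. The share of mitochondrial counts was also highest in replicate 1. The methods describe a strainer step that removes villi before crypts are collected. The part of remaining enterocytes or RNA quality in the reserve gene values was not tested.

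**Figure D2:**
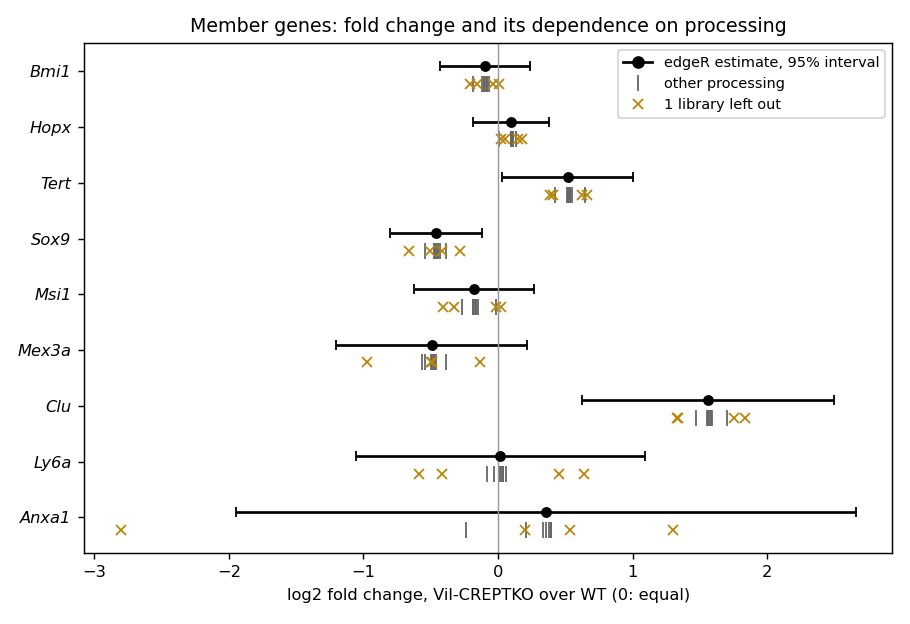
Log2 fold change of Vil-CREPTKO over WT for each member gene, with 95% intervals (black) from edgeR, other processing choices (grey ticks) and fits with 1 library left out (gold crosses). The intervals of Tert, Sox9 and Clu exclude 0 before adjustment for multiple tests, and the estimates of Anxa1 run from -2.80 to 1.30.

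Of 5 further reserve markers, none passed the test. Their median log2 fold change was -0.22. Prox1, a homeobox factor of enteroendocrine and tuft precursors, stood at 3.94 and 4.45 CPM in the WT libraries and 1.73 and 2.32 CPM in those of Vil-CREPTKO. The groups did not overlap (log2 fold change -1.05, SE 0.29, adjusted p = 0.113), and with no filter on low counts the adjusted p was 0.0246. The highest was Krt15, a keratin of long-lived crypt cells, at 0.69 (SE 0.34, adjusted p = 0.414). Krt19, the most abundant per length, was at 0.26 (SE 0.20, adjusted p = 0.642).

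Clu encodes clusterin, a secreted chaperone that also has intracellular forms (chr14:65968483-65981547, plus strand). It had 40 and 27 counts for WT against 73 and 111 counts for Vil-CREPTKO, or 0.784 and 0.549 CPM against 1.68 and 2.26 CPM. Both Vil-CREPTKO libraries were above both WT libraries, and the mean was 0.666 ± 0.166 CPM in WT and 1.97 ± 0.411 CPM in Vil-CREPTKO (n = 2 each), a ratio of 296%. The fitted log2 difference was 1.56 (SE 0.41), with an unadjusted p of 0.00456 and an adjusted p of 0.0997. Its 95% interval ran from 1.54 to 5.64 fold.

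Clu was the member with the largest log2 fold change, and its adjusted p depended on the processing. DESeq2, the tool of the study, gave 0.0398 and the fit with no filter on low counts gave 0.0137. Over all 12 alternatives the adjusted p reached 0.284 at the highest. The fold change lay between 1.33 and 1.84 on the log2 scale in these alternatives, those without single libraries included. Without WT replicate 2, which leaves male libraries only by Xist and the Y-linked genes, it was 1.33, the lowest of these alternatives. The highest adjusted p came from that same fit. Of 3 clusterin receptors, Vldlr and Lrp8 were tested, with log2 fold changes of 0.34 (SE 0.24, adjusted p = 0.605) and 0.15 (SE 0.27, adjusted p = 0.875), and Lrp2 had 0 to 6 counts.

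Ly6a encodes Sca-1, a surface protein of the Ly6 family that is also made by endothelial, stromal and T cells (chr15:74994877-74998031, minus strand). Ly6a stood at 1.25 and 2.60 CPM in the WT libraries and 2.62 and 1.28 CPM in those of Vil-CREPTKO. The groups covered the same range, with a log2 fold change of 0.02 (SE 0.47, adjusted p = 0.994). The 95% interval was 0.480 to 2.13 fold, so with this spread both a lower and a higher level remained possible.

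Of 13 Ly6 family genes, 12 were in the table by a name that could be matched, 4 were tested and 1 passed. Ly6e, the most abundant of the family per length (98.6 TPM in WT) and an interferon-inducible gene, stood at 143 and 160 CPM in the WT libraries and 72.5 and 84.4 CPM in those of Vil-CREPTKO. Its log2 fold change was -0.95 (SE 0.14, adjusted p = 0.0102), and the adjusted p stayed under 0.05 in all 12 alternatives. Whether Ly6e and Ly6a differed in their response was not tested. Psca, also named after its values were seen, had 18 and 0 counts in the WT libraries and 29 and 19 counts in those of Vil-CREPTKO, and passed only without WT replicate 1, which leaves the WT library at 0 (adjusted p = 0.0451). Ly6c1, a gene of endothelial and other cells chosen here after its values were seen, had 2 and 1 counts in the WT libraries and 30 and 2 counts in those of Vil-CREPTKO.

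Ly6a is also induced by interferon. Of 7 interferon-responsive genes tested, 1 passed, Irf7, which encodes a transcription factor of the antiviral response. Irf7 stood at 56.7 and 74.7 CPM in the WT libraries and 38.1 and 36.2 CPM in those of Vil-CREPTKO, with a fitted log2 fold change of -0.82 (SE 0.15, adjusted p = 0.0262). Without WT replicate 2 it was -0.61 and no longer passed (adjusted p = 0.101), nor did it after correction for GC content and length (adjusted p = 0.0604). Irf1, the most abundant of the list per length, had a log2 fold change of 0.02 (SE 0.16, adjusted p = 0.972), and the median of the 7 was -0.31.

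**Figure D3:**
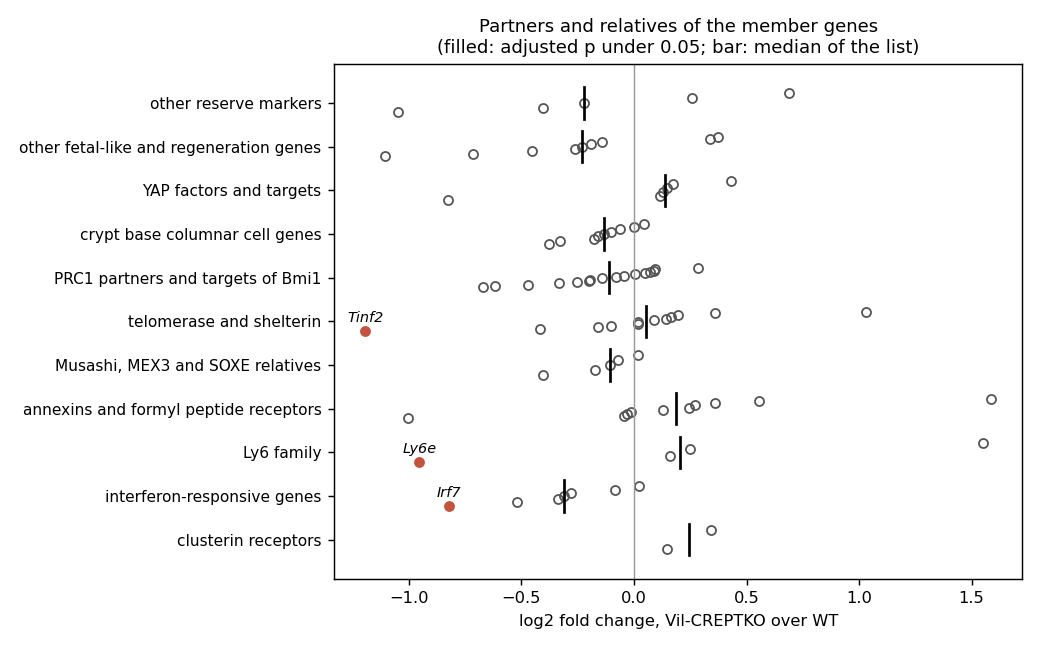
Log2 fold change of the tested partners and relatives of the member genes, 1 point per gene, by list. Filled points passed an adjusted p of 0.05 and black bars are list medians. The 3 genes that passed, Tinf2, Ly6e and Irf7, were all lower in Vil-CREPTKO. Most genes that passed over all genes tested were lower too (2.29% lower and 0.423% higher).

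Anxa1 encodes annexin A1, a calcium-dependent membrane-binding protein with anti-inflammatory activity (chr19:20373428-20390944, minus strand). It had 17 and 13 counts for WT against 32 and 2 counts for Vil-CREPTKO, or 0.333 and 0.264 CPM against 0.736 and 0.0407 CPM. Of the 4 libraries, Vil-CREPTKO replicate 1 was the highest and replicate 2 the lowest, and the log2 fold change was 0.36 (SE 1.01, adjusted p = 0.924). The 95% interval of 0.260 to 6.32 fold leaves the direction unmeasured. Without Vil-CREPTKO replicate 1 the log2 fold change was -2.80 (adjusted p = 0.510).

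Of 14 other annexins and formyl peptide receptors, 10 were tested and none passed. They ran from -1.004 for Anxa9 (SE 0.75, adjusted p = 0.624) to 1.59 for Anxa10 (SE 0.77, adjusted p = 0.403). Anxa13, an annexin of the intestinal epithelium and the most abundant per length (351 TPM in WT), stood at 212 and 171 CPM in the WT libraries and 306 and 257 CPM in those of Vil-CREPTKO. The groups did not overlap (log2 fold change 0.56, SE 0.17, adjusted p = 0.153), and the adjusted p was 0.0254 with DESeq2 and 0.0270 with no filter on low counts. Anxa10 stood at 0.588 and 0.0813 CPM in the WT libraries and 1.196 and 0.835 CPM in those of Vil-CREPTKO, and passed without WT replicate 1 (log2 fold change 3.60, adjusted p = 0.0353).

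Ly6a and Anxa1 are also made outside the epithelium, and markers of other cells are given beside them. The 7 stromal cell markers summed to 15.0 and 13.9 CPM in the WT libraries, 27.0 CPM in replicate 1 of Vil-CREPTKO and 9.67 CPM in replicate 2, the same order as for Anxa1. None of the 7 passed the test, and Pdgfra and Lum were at 0 in Vil-CREPTKO replicate 2 only. The 6 myeloid markers, of which none passed, summed to 16.7 and 11.9 CPM in the WT libraries and 26.8 and 13.4 CPM in those of Vil-CREPTKO, with S100a8 at 0 in Vil-CREPTKO replicate 2. Of the 6 endothelial markers Emcn and Cldn5 were at 0 throughout, and the sum was 2.84 and 3.37 CPM in the WT libraries and 3.29 and 1.98 CPM in those of Vil-CREPTKO.

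The part of these cells in the Anxa1 and Ly6a values was not tested. T cell markers summed to 245 and 179 CPM in the WT libraries and 186 and 142 CPM in those of Vil-CREPTKO. None was at 0 and none passed the test, with 5 negative and 1 positive log2 fold changes. The positive one was Cd2, at 0.215 and 0.203 CPM in the WT libraries and 0.897 and 0.631 CPM in those of Vil-CREPTKO (log2 fold change 1.85, SE 0.58, adjusted p = 0.165). For Clu, which was higher in both Vil-CREPTKO libraries, stromal and myeloid sums were above both WT sums in replicate 1 only. The 6 B and plasma cell markers summed to 15.9 and 14.8 CPM in the WT libraries and 21.03 and 32.9 CPM in those of Vil-CREPTKO, the same order of the Vil-CREPTKO libraries as for Clu. That order, replicate 2 above replicate 1, was found for 50.1% of all genes tested and also for the Paneth cell sum. None of the 6 B and plasma cell markers passed and none was at 0. The 6 enteroendocrine cell markers summed to 304 and 294 CPM in the WT libraries and 337 and 427 CPM in those of Vil-CREPTKO, also in the order of Clu. Chgb was the largest part of these sums, at 186 and 182 CPM in the WT libraries and 218 and 291 CPM in those of Vil-CREPTKO. The 6 markers went both ways, with 3 positive and 3 negative log2 fold changes, none past the test and none at 0. The part of B and plasma cells or of enteroendocrine cells in the Clu value was not tested.

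**Figure D4:**
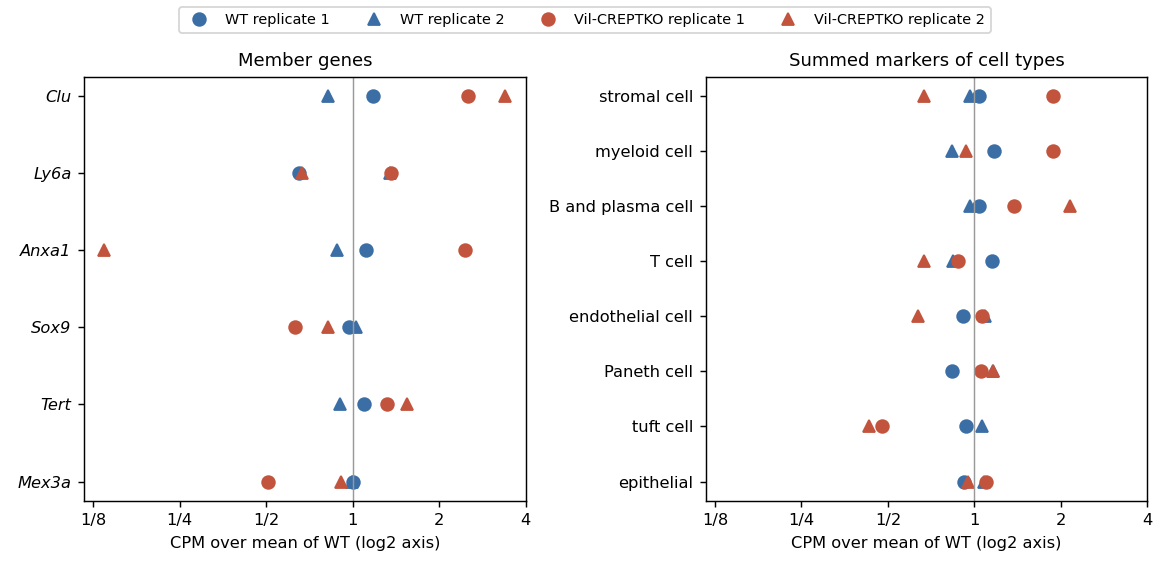
Level of 6 member genes (left) and summed markers of 8 cell types (right) in each library, as CPM over the mean of WT on a log2 axis. Circles are replicate 1 and triangles replicate 2, with WT in blue and Vil-CREPTKO in red. Stromal markers of Vil-CREPTKO replicates 1 and 2 lie at 1.87 and 0.670 of the WT mean, in the order of Anxa1, and tuft markers at 0.478 and 0.431.

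Of 11 other fetal-like and regeneration genes, 9 were tested and none passed. Their median log2 fold change was -0.23, and 7 of the 9 had negative values. Basp1, a membrane-bound protein of the fetal-like programme, stood at 2.72 and 3.96 CPM in the WT libraries and 1.86 and 1.24 CPM in those of Vil-CREPTKO (fitted log2 fold change -1.11, SE 0.35, adjusted p = 0.171), and with no filter on low counts its adjusted p was 0.0361. The highest was Areg, a ligand of the EGF receptor, at 0.37 (SE 0.24, adjusted p = 0.563). Il33, an alarmin and the most abundant per length, stood at 24.6 and 47.6 CPM in the WT libraries and 34.3 and 18.5 CPM in those of Vil-CREPTKO, with overlapping groups.

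Gja1 (connexin 43), a gap junction protein, was close to absent and is named here after its values were seen. Gja1 had 8 counts in WT replicate 2, 3 in Vil-CREPTKO replicate 1 and 0 in the others. A count of 0 allows up to 0.0588 to 0.0690 CPM at this depth.

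YAP drives the revival state, and 8 YAP factors and targets were listed, of which 6 were tested and none passed. Yap1 itself, the most abundant per length, stood at 88.9 and 97.8 CPM in the WT libraries and 95.9 and 106 CPM in those of Vil-CREPTKO (fitted log2 fold change 0.12, SE 0.12, adjusted p = 0.748). Wwtr1, which encodes the related coactivator TAZ, had the lowest value at -0.83 (SE 0.41, adjusted p = 0.421), with 3.76 and 4.90 CPM in the WT libraries and 1.38 and 3.48 CPM in those of Vil-CREPTKO. The value hung on Vil-CREPTKO replicate 1: without it Wwtr1 was at -0.32 (adjusted p = 0.810), and without replicate 2 at -1.64 (adjusted p = 0.0357). Tead1, a DNA-binding partner of YAP, had the highest at 0.43 (SE 0.19, adjusted p = 0.353). The target genes Ccn2 and Ankrd1, named after their values were seen, had at most 1 count in any library.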

How the data were processed

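The authors deposited a table of whole-number read counts, 1 row per gene and 1 column per library. RNA had been taken with Trizol from crypts loosened in EDTA and passed through a strainer that held back villi. Per the study's methods and the submitters' processing notes (CASAVA 1.8, Bowtie2, RSEM), reads were mapped to transcripts of GRCm38.p6. The table holds Ensembl identifiers, which these notes do not mention, and the strand setting of the counting is not given in the sources used here. The sequencer is BGISEQ in the methods and Illumina in the record. Symbols, positions and exon lengths came from GENCODE M21 (GRCm38), which matched 53360 of 53845 rows (99.1%). The 380 unnamed loci held 0.178% to 0.247% of a library's counts.

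Counts were tested in R 4.3.3 with edgeR 4.0.16 (filterByExpr, TMM, glmQLFit and glmQLFTest with the group as the only term, two-sided, Benjamini-Hochberg over 17504 genes). The common biological coefficient of variation was 0.188, so the spread between libraries, and not counting error, limited precision for all but the lowest genes. An SE is the size of the log2 fold change over the square root of F. TPM used exon lengths and no TMM scaling. The 2 libraries of a group differed far beyond sampling noise (chi-square per gene of 49.8 in WT and 70.1 in Vil-CREPTKO), so none was counted as a duplicate. The model was tested on simulated data first. Alternatives were DESeq2 1.42.0, scaling by RLE, by upper quartiles or by library size alone, no filter, at least 10 counts in every library, a replicate block, a loess correction for GC content and length, and each library left out.

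Members and lists were chosen with earlier results of these data known. The genes named were the members, Rprd1b, every gene of a related list past an adjusted p of 0.05 or otherwise its extremes, and the most abundant gene of a list. Vil-CREPTKO and WT were assigned from sample titles. One list gene is not reported here.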

Additional observations from a re-analysis of the deposited data

How the results depend on the processing

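Of 107 values of the member genes under 12 alternatives, 95 kept their direction and their side of an adjusted p of 0.05, 8 changed sign and 4 went past the threshold. The changes of sign were log2 fold changes of 0.0049 (Bmi1), 0.020 (Msi1), -0.59 (Ly6a) and -2.80 (Anxa1) without Vil-CREPTKO replicate 1, and for Ly6a -0.42 without WT replicate 1, -0.082 with library-size scaling and -0.028 with the GC content and length correction. Left-out libraries gave ranges of -0.21 to 0.0049 for Bmi1, -0.41 to 0.020 for Msi1, -0.59 to 0.64 for Ly6a and -2.80 to 1.30 for Anxa1. The number of members past the threshold was 0 with edgeR, 1 with DESeq2 (Clu), 2 with no filter (Clu and Sox9), and 0 to 1 when single libraries were left out (Sox9 without Vil-CREPTKO replicate 2). Over all genes, 235 were called lower and 52 higher, against 379 lower with library-size scaling, 450 lower and 163 higher with no filter, and 90 higher with DESeq2. Leaving out single libraries gave 225 to 308 lower and 62 to 135 higher. The reserve median was -0.31 without Vil-CREPTKO replicate 2 and 0.01 without replicate 1, and the revival median was 1.30 and -0.59. Library-size scaling moved the median of all genes by most, to -0.10. The causes were not tested.

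The deviations of same-numbered libraries from their group means had a correlation of 0.028 over genes. With 2 libraries per group this is a single value, the same for both replicate numbers by construction. Whether the replicate numbers pair the libraries was therefore not settled. With the replicate block, 0 members passed, the revival median was 0.02, and 269 genes were called lower and 67 higher. Anxa1 changed sign under the block (-0.24), and the other 8 members kept theirs.

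With 2 libraries per group, and Clu and Anxa1 at 111 counts or fewer, a difference in the revival genes is measured with wide error. Anxa1 was not tested when at least 10 counts in every library were required. A fit without a library assumes that the lone library left varies like the other group.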
